A study of Arabidopsis thaliana with 35 samples.

Results

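CCA1 (AT2G46830) and LHY (AT1G01060) are the closely related MYB-type transcription factors of the morning phase of the Arabidopsis circadian clock. They were picked out by their locus identifiers, with earlier results of these data known, and are 2 of the 37898 genes measured. Their transcripts were followed in 35 single-end RNA-seq libraries of whole seedlings, which had grown for 12 days in cycles of 12 h light and 12 h dark at 22 °C. Seedlings were kept for 1 h at 37 °C, at 10 °C or at 22 °C, the control temperature, and harvested either 1 h or 6 h after lights on (Zeitgeber time, ZT1 and ZT6). At ZT1 the double mutant *cca1lhy* (alleles cca1-1 and lhy-20) was set against wild type (WT), with 4 libraries for each genotype and temperature and 3 for WT at 10 °C. At ZT6 the double mutant *prr7prr9* (alleles prr7-3 and prr9-1) was set against WT, with 2 libraries for each genotype and temperature. WT was the accession Col-0. Each genotype is represented by a single combination of alleles.

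In the plant clock, CCA1 and LHY transcripts peak around dawn, and both proteins bind a short DNA motif, the evening element, upstream of evening-phased genes and repress them. The pseudo-response regulators PRR9, PRR7 and PRR5, expressed one after the other through the day, and TOC1 in the evening repress CCA1 and LHY in turn, which closes the loop. Mutants of *PRR7* and *PRR9* are known for long periods and for CCA1 and LHY transcripts that stay high into the day.

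Both genes stand apart from their neighbours in the annotation. In the RefSeq annotation of the TAIR10.1 assembly, CCA1 lies on chromosome 2 at chr2:19245591-19248915 on the forward strand, with 8 exons in the union of its transcripts that cover 2722 bases. LHY lies on chromosome 1 at chr1:33365-37871 on the reverse strand, with 9 union exons covering 3421 bases. Neither overlaps another annotated gene, and the nearest neighbours start or end 449 and 55 bases from CCA1 and 193 and 572 bases from LHY. The longest match of the exons of 1 gene within the other is 113 bases at 78.8% identity when CCA1 is searched and 120 bases at 78.3% when LHY is searched. Of all matches found elsewhere in the nuclear genome, those within the other gene included, none passed 81.8% identity. Reads of 1 gene thus differ from those of the other at many positions.

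The promoters are shown because the levels of both genes are the subject here and because the repressors and activators described further on act on them. The following are the 250 bases before each annotated start, at chr2:19245341-19245590 (forward strand) for CCA1 and chr1:37872-38121 (reverse strand) for LHY, read from the TAIR10.1 genome and written 5′ to 3′. Capitals mark the G-box CACGTG, the TCP site GTCCCAC and GAANNTTC, a pair of inverted heat shock units.
CCA1: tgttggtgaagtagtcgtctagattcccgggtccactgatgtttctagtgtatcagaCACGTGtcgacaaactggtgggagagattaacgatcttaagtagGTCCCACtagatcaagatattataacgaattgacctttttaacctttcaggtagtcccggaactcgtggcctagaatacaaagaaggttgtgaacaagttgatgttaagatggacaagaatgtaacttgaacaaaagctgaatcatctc
LHY: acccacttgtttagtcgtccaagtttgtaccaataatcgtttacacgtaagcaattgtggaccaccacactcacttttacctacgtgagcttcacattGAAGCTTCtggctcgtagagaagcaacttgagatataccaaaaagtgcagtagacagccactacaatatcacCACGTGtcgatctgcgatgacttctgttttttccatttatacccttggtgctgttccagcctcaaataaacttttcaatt

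Both windows hold a G-box, the hexamer recognised by bZIP and bHLH factors. It begins 193 bases before the start in CCA1 and 80 bases before it in LHY, and 6.49% of 27443 promoters of that length hold one on either strand. The TCP site, to which TCP factors bind, begins 149 bases before the start of CCA1 and is in 1.08% of promoters. GAANNTTC begins 152 bases before the start of LHY and is in 9.55% of promoters. The evening element AAATATCT (4.79% of promoters), the CCA1 binding site AAAAATCT (6.69%) and the cold-response core CCGAC (12.0%), searched on both strands, were found in neither window. A match of letters is a description of the sequence only.

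The deposited values are log2 CPM (counts of a gene scaled to the library total), made separately for the 2 times of day, so levels are compared within a time only. Counts recovered from the steps between low values gave 1.06 to 11 M reads per library at ZT1 (median 1.85) and 12.3 to 29.4 M at ZT6 (median 18.2). Differences are log2 fold changes (LFC) from limma, fitted to all 6 groups of a time, and a gene was called when its Benjamini-Hochberg adjusted p over all tested genes was under 0.05 and its absolute LFC over 1. Interactions and differences between times were called on the adjusted p alone. The methods call the ZT1 libraries biological replicates and those of ZT6 replicates. The labels do not say whether libraries of a group came from separate cultures, so p-values measure the spread between these libraries. Of the targeted genes, PRR7 was lower in *prr7prr9* than in WT by 4.83, 4.70 and 4.72 (LFC at 37 °C, 10 °C and 22 °C). The LFC of PRR9 was −1.18 (adjusted p = 0.138), −2.84 (adjusted p = 0.00286) and 0.07 (adjusted p = 1), so at 22 °C, where WT itself had only 2.73 and 2.98 log2 CPM, PRR9 did not mark the mutant. Leaf markers of whole seedlings were present in every library, and no leaf, root or seed marker was called between a mutant and WT at any temperature. Their sums were not all alike. Over 3 leaf markers *cca1lhy* libraries had 29726 to 39939 CPM at 22 °C, against 44478 to 47384 CPM in WT. At 10 °C *cca1lhy* had 29726 to 33356 CPM, against 41474 to 44698 CPM in WT, and at 37 °C the genotypes overlapped. Over 4 root markers they overlapped at 22 °C and 10 °C, and at 37 °C *cca1lhy* had 471 to 531 CPM. At ZT6 leaf sums overlapped and root sums were lower in *prr7prr9*. Summed over 3 leaf markers, 37 °C libraries of ZT1 had 17153 to 24935 CPM in WT, against 44478 to 47384 CPM in WT at 22 °C. Summed over 4 root markers, they had 572 to 718 CPM, against 1736 to 3472 CPM, a sum made mostly of PYK10 (LFC −2.15). Of the other root markers COBL9 had an LFC of −0.93, EXPA7 of 0.81 and TIP2;3 of 0.42, none of them called. In RNA of whole seedlings, fewer cells of a type and less RNA per cell cannot be told apart. The part of these markers in the responses to 37 °C and in the differences between genotypes was not tested.

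One library, replicate 2 of *cca1lhy* at 22 °C, stood apart and touches results of both genes. Gaps that were smaller on the log2 scale were also marked, and are described further on. They were in CCA1 in replicate 4 of *cca1lhy* at 10 °C and in LHY in replicate 2 of WT at 37 °C. In the library that stood apart, CCA1 was at 5.29 log2 CPM, against 2.03 to 2.48 in the other 3 libraries of its group. Over 34 genes that were lower in *cca1lhy* than in WT at both other temperatures, this library lay at a median of 10.1% of the way between its partners (0%) and WT (100%), with quartiles of −1.55% and 21.7%. Of the 34 genes, 15 lay above all its partners. Its partners, each placed the same way, had medians of −4.66%, −4.33% and −4.00%. These are not independent of it, because the 0% of each partner takes in this library. CCA1 lay at 9% and LHY at 9.25% of that way in it. The values of CCA1 and LHY at 22 °C in *cca1lhy* rest in part on this library, and the source of its higher values was not tested.

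Residual CCA1 transcript in *cca1lhy* rested on few reads at 37 °C and in 3 of the 4 libraries at 22 °C, and was detected in every library at 10 °C. At 37 °C CCA1 had 2.67, 2.55, 2.15 and 3.11 log2 CPM in the *cca1lhy* libraries, against 8.71, 8.39, 8.93 and 8.85 in WT. These mutant values rest on 3, 3, 2 and 9 reads, with exact 95% Poisson intervals as wide as 0.2 to 7.2 reads for the lowest, which cover counting error only. In all 3 comparisons of *cca1lhy* with WT every mutant library lay below every WT library for CCA1, and groups were without overlap for 9.83%, 12.7% and 8.39% of all genes at 37 °C, 10 °C and 22 °C.

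At 10 °C CCA1 had 3.29, 3.28, 3.24 and 3.93 log2 CPM in *cca1lhy*, against 9.53, 9.48 and 9.64 in WT. The 4 mutant libraries held 34, 89, 51 and 24 CCA1 reads, so the transcript was detected in each of them. At 22 °C CCA1 had 2.29, 5.29, 2.48 and 2.03 log2 CPM in *cca1lhy*, against 8.83, 8.26, 8.52 and 8.72 in WT. The mutant values at 22 °C rest on 5, 74, 12 and 3 reads, and 74 of these 94 reads came from the library that stood apart.

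**Figure D1:**
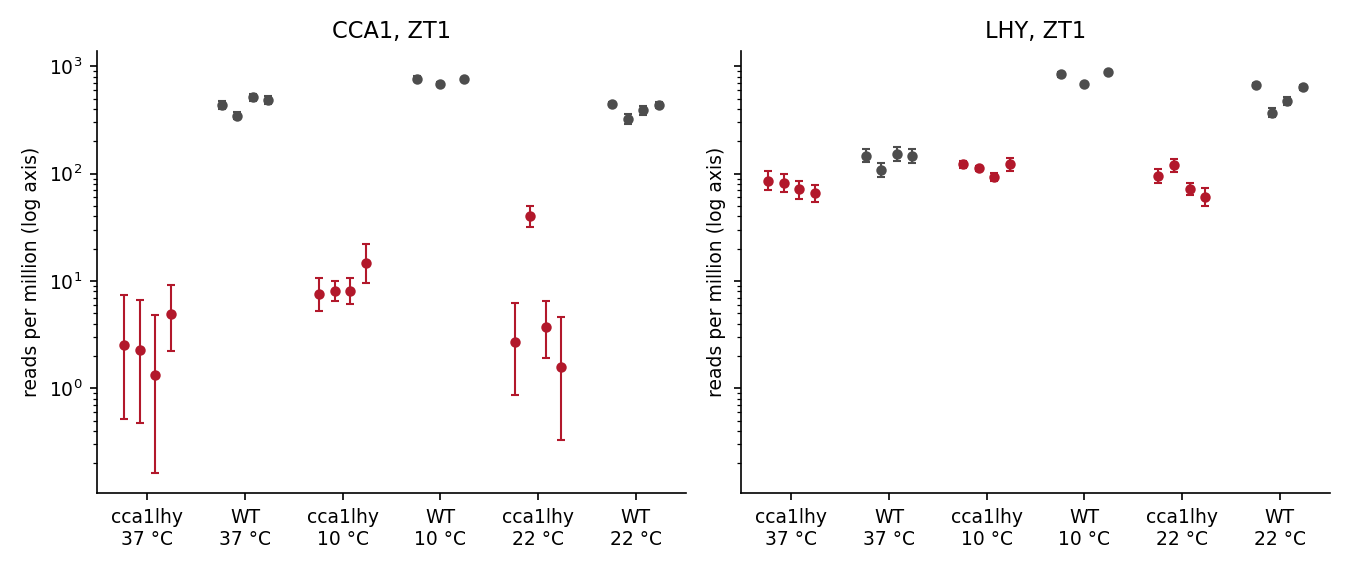
RPM (reads scaled to the library total) assigned to CCA1 and to LHY at ZT1 (log axis) in each library of *cca1lhy* and WT at 37 °C, 10 °C and 22 °C, with exact 95% Poisson intervals. CCA1 in *cca1lhy* stays between 1.34 and 14.8 RPM apart from the 22 °C library at 40.1, while LHY in *cca1lhy* lies between 60.6 and 122 RPM.

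CCA1 fell in *cca1lhy* at all 3 temperatures. The LFC of CCA1 between *cca1lhy* and WT was −6.10 ± 0.42 (SE) at 37 °C (limma, adjusted p = 4.87e-09), −6.11 ± 0.46 at 10 °C (adjusted p = 3.3e-09) and −5.56 ± 0.42 at 22 °C (adjusted p = 4.18e-09). Of all 25727 genes tested at ZT1, 2.13%, 1.57% and 1.72% were called in these 3 comparisons, and 0.824%, 0.455% and 0.385% were called lower. Because 5 was added to every count before the log was taken, LFCs of so few reads understate the change. In mean RPM, the recovered reads of a gene relative to the total of its library, CCA1 in *cca1lhy* stood at 2.75 against 446 in WT at 37 °C (0.617%), at 9.65 against 741 at 10 °C (1.3%) and at 12.0 against 399 at 22 °C (3.01%). Without the library that stood apart, the 22 °C mean was 2.67 RPM, or 0.669% of WT, and the LFC was −6.31. The mean of 9.65 at 10 °C includes replicate 4 at 14.8 RPM, against 7.57 to 8.14 in its partners.

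LHY transcript was lowered in *cca1lhy* but remained abundant. At 37 °C LHY had 6.4, 6.34, 6.16 and 6.07 log2 CPM in *cca1lhy*, against 7.15, 6.74, 7.21 and 7.15 in WT. At 10 °C it had 6.96, 6.88, 6.60 and 6.99 in *cca1lhy*, against 9.67, 9.47 and 9.86 in WT. At 22 °C it had 6.55, 6.88, 6.21 and 5.94 in *cca1lhy*, against 9.41, 8.44, 8.80 and 9.27 in WT. Every *cca1lhy* library lay below every WT library of its temperature, and the gap between the groups was smallest at 37 °C.

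The LFC of LHY between *cca1lhy* and WT was −0.82 ± 0.19 at 37 °C (limma, adjusted p = 0.0113), −2.81 ± 0.21 at 10 °C (adjusted p = 3.3e-09) and −2.59 ± 0.19 at 22 °C (adjusted p = 3.27e-09). The first of these is under the LFC threshold and was not called, and the last was −2.75 without the library that stood apart. In mean RPM, LHY in *cca1lhy* stood at 76.4 against 139 in WT at 37 °C (55.0%), at 112 against 806 at 10 °C (13.9%) and at 86.8 against 539 at 22 °C (16.1%, or 14.1% without replicate 2). The LHY reads of single *cca1lhy* libraries numbered 103 to 1233, far above the few CCA1 reads of the same libraries. The files give 1 value per gene and do not show which exons the residual LHY reads came from.

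**Figure D2:**
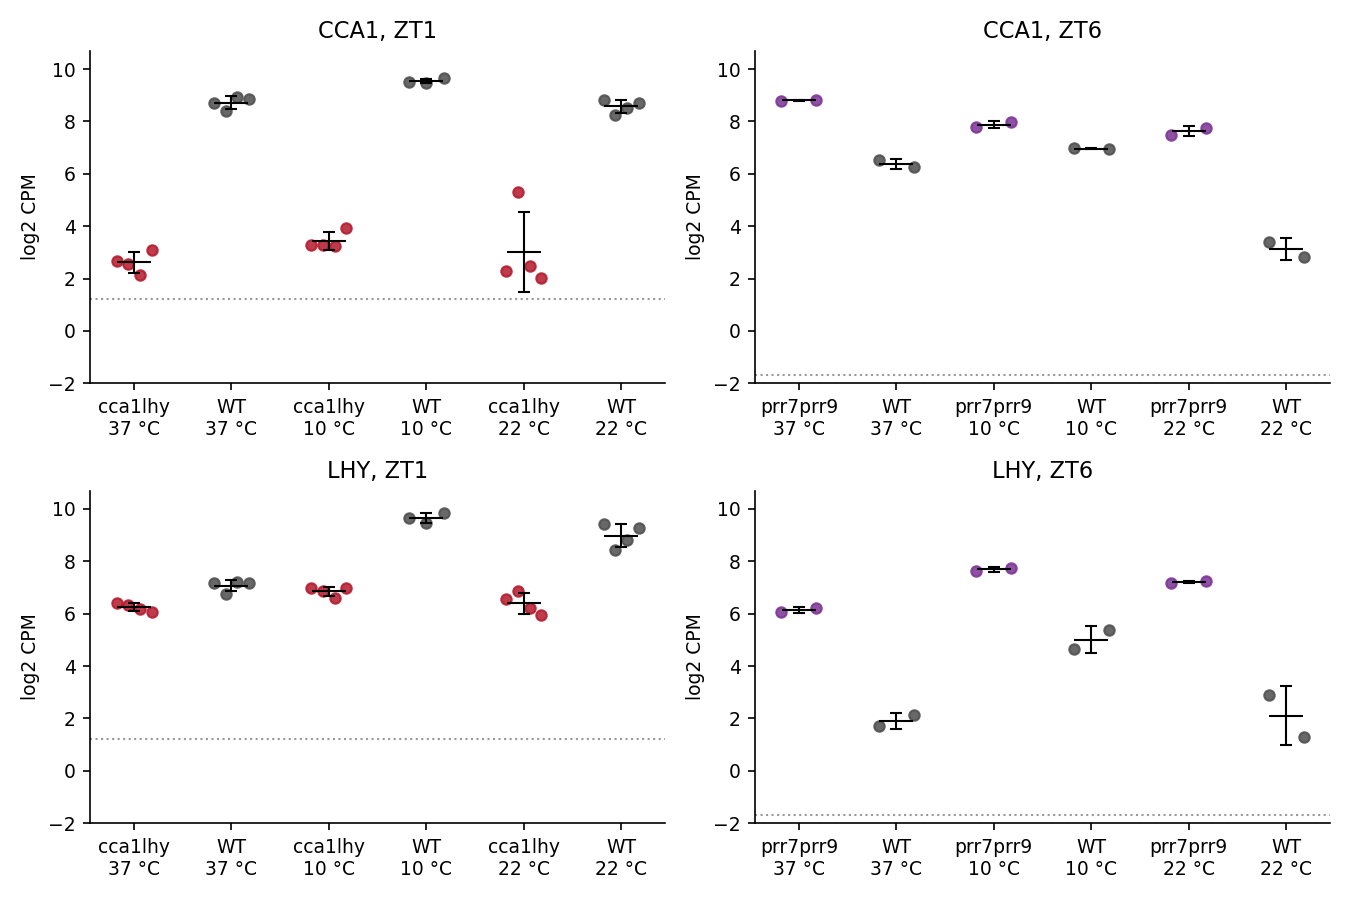
Level of CCA1 and of LHY (log2 CPM) in each of the 35 libraries by genotype and temperature, at ZT1 and at ZT6, with the mean of each group as a bar. LHY in WT at ZT1 is low at 37 °C (6.74 to 7.21) and high at 10 °C (9.47 to 9.86), while CCA1 in WT spans only 8.26 to 9.64 at that time.

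At ZT1 LHY was lower in WT after an hour of heat, while CCA1 did not pass the test. LHY fell by 1.92 ± 0.19 on the log2 scale in WT at 37 °C relative to 22 °C (limma, adjusted p = 2.94e-08), and all 37 °C libraries lay below all 22 °C libraries. Of all genes, 13.3% were called and 25.1% did not overlap between the groups in this comparison. CCA1 in WT differed by 0.14 ± 0.42 (adjusted p = 0.861), with a 95% confidence interval from −0.74 to 1.01, and the groups overlapped. The value of CCA1 minus LHY within each library, which is given further on, compares the genes directly.

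After an hour at 10 °C, neither gene passed both thresholds in WT at ZT1, where 1.87% of genes were called. The LFC relative to 22 °C was 0.97 ± 0.46 for CCA1 (adjusted p = 0.347) and 0.68 ± 0.21 for LHY (adjusted p = 0.0716), and for both genes every 10 °C library lay above every 22 °C library, as for 14.2% of genes. The SE of CCA1 takes in the *cca1lhy* library that stood apart, and without it the LFC of 0.97 had an adjusted p of 0.00515, still under the LFC threshold. Between 37 °C and 10 °C in WT, where 14.1% of genes were called, LHY fell by 2.60 ± 0.21 (adjusted p = 5.72e-10). CCA1 had an LFC of −0.83 ± 0.46 in that comparison (adjusted p = 0.189, or 0.0031 without that *cca1lhy* library), under the LFC threshold.

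In *cca1lhy* no temperature comparison of either gene was called, against 12.7% of genes at 37 °C and 2.15% at 10 °C relative to 22 °C and 13.2% between 37 °C and 10 °C. The residual LHY transcript had an LFC of −0.15 ± 0.19 at 37 °C (adjusted p = 0.609) and of 0.46 ± 0.19 at 10 °C (adjusted p = 0.223). Between 37 °C and 10 °C its LFC was −0.61 ± 0.19 (adjusted p = 0.0183), under the LFC threshold. Residual CCA1 had LFCs of −0.41 ± 0.42 at 37 °C (adjusted p = 0.517) and 0.42 ± 0.42 at 10 °C (adjusted p = 0.78) relative to 22 °C. Without the library that stood apart, these became 0.35 (adjusted p = 0.218) and 1.17 (adjusted p = 0.000667), so the call at 10 °C depends on that library. Between 37 °C and 10 °C residual CCA1 had an LFC of −0.82 ± 0.42 (adjusted p = 0.152, or 0.00166 without that library), under the LFC threshold. In mean RPM it stood at 2.75 at 37 °C against 9.65 at 10 °C (28.5%).

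The response of LHY to 37 °C differed between the genotypes. The difference of LFCs, *cca1lhy* minus WT, was 1.77 ± 0.28 (limma, adjusted p = 0.00178), one of the 0.913% of genes called for this interaction, and it was 1.93 and still called without the library that stood apart. For CCA1 it was −0.54 ± 0.60 (adjusted p = 0.751), or 0.22 without the library that stood apart. The interaction with 10 °C, called for 0.0117% of genes, was −0.22 ± 0.29 for LHY and −0.55 ± 0.62 for CCA1 (adjusted p = 1 for both), with a 95% confidence interval of −0.81 to 0.37 for LHY.

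At ZT6, a time of day when both transcripts are known to decline, CCA1 was higher in WT at both stress temperatures than at 22 °C. CCA1 had 6.52 and 6.26 log2 CPM in WT at 37 °C and 6.97 and 6.95 at 10 °C, against 3.41 and 2.83 at 22 °C. LHY had 1.70 and 2.13 log2 CPM in WT at 37 °C and 4.64 and 5.37 at 10 °C, against 2.91 and 1.30 at 22 °C. CCA1 was thus separated from the control at both temperatures, LHY at 10 °C, and the LHY values at 37 °C lay between those at 22 °C.

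CCA1 rose by 3.27 ± 0.20 in WT at 37 °C relative to 22 °C (limma, adjusted p = 7.27e-06), in a comparison in which 14.4% of 31135 genes were called, and 50.8% did not overlap between the groups of 2 libraries. At 10 °C CCA1 rose by 3.84 ± 0.20 (adjusted p = 2.82e-05) and LHY by 2.90 ± 0.44 (adjusted p = 0.00426), where 5.94% of genes were called and 43.6% did not overlap. The call of LHY was lost without replicate 2 of WT at 10 °C (LFC 2.54, adjusted p = 0.0536). LHY at 37 °C had an LFC of −0.19 ± 0.44 (adjusted p = 0.842) with a 95% confidence interval from −1.17 to 0.79, and turned to 0.62 without replicate 2 of WT at 22 °C and to 0.027 without replicate 2 of WT at 37 °C. Between 37 °C and 10 °C, with 18.8% of genes called, LHY fell by 3.09 ± 0.44 (adjusted p = 0.000802), and CCA1 had an LFC of −0.57 ± 0.20 (adjusted p = 0.0589). The LHY values of WT rest on 31 and 40 reads at 37 °C, 478 and 667 at 10 °C, and 125 and 46 at 22 °C.

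In *prr7prr9* both genes were high at ZT6 at every temperature. CCA1 had 8.79 and 8.81 log2 CPM at 37 °C, 7.78 and 7.98 at 10 °C, and 7.50 and 7.75 at 22 °C. LHY had 6.07 and 6.23 log2 CPM at 37 °C, 7.62 and 7.76 at 10 °C, and 7.18 and 7.23 at 22 °C. At each temperature both *prr7prr9* libraries lay above both WT libraries for both genes, which 2 against 2 libraries show for many genes: 26.4%, 39.2% and 28.7% of all genes did not overlap at 37 °C, 10 °C and 22 °C.

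Few genes were called between *prr7prr9* and WT, namely 0.145% at 37 °C, 0.141% at 10 °C and 0.286% at 22 °C. CCA1 was called higher at 37 °C (LFC 2.41 ± 0.20, limma, adjusted p = 0.00241) and at 22 °C (4.51 ± 0.20, adjusted p = 1.65e-05). LHY was called higher at 37 °C (4.24 ± 0.44, adjusted p = 0.00808) and at 22 °C (5.10 ± 0.44, adjusted p = 0.000726), and 0.106% and 0.215% of all genes were called higher there. The call of LHY at 37 °C was lost without either *prr7prr9* library at 10 °C or without replicate 2 of *prr7prr9* at 22 °C (adjusted p up to 0.0997), which enter only the shared spread. At 10 °C the LFCs were 0.92 ± 0.20 for CCA1 (adjusted p = 0.155) and 2.68 ± 0.44 for LHY (adjusted p = 0.0709), with 95% confidence intervals of 0.47 to 1.36 and 1.70 to 3.66. LHY at 10 °C was called without replicate 2 or 3 of WT at 22 °C (adjusted p = 0.0251 and 0.0246). In mean RPM, CCA1 stood at 458 in *prr7prr9* against 86.1 in WT at 37 °C (5.32-fold), at 242 against 128 at 10 °C (1.89-fold) and at 202 against 8.98 at 22 °C (22.5-fold). LHY stood at 72.8 against 2.85 (25.5-fold), 211 against 31.8 (6.64-fold) and 150 against 4.92 (30.5-fold) in the same order of temperatures.

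**Figure D3:**
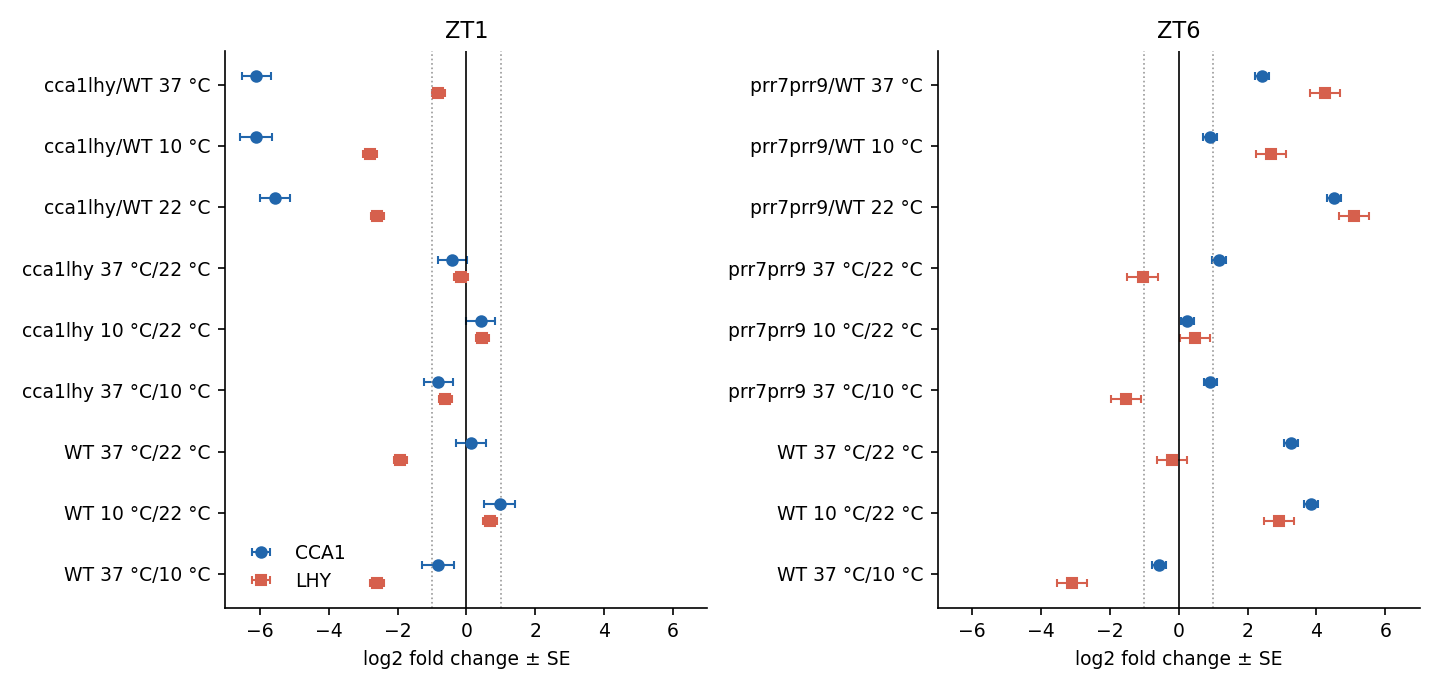
LFC ± SE of CCA1 and of LHY for the genotype and temperature comparisons of ZT1 and ZT6. The largest values for CCA1 are the LFCs of −6.11 to −5.56 in *cca1lhy*, and for LHY the rises of 4.24 and 5.10 in *prr7prr9* at 37 °C and 22 °C.

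Within *prr7prr9*, CCA1 was higher after heat. CCA1 rose by 1.17 ± 0.20 at 37 °C relative to 22 °C (limma, adjusted p = 0.00309), with 14.1% of genes called, and LHY had an LFC of −1.05 ± 0.44 (adjusted p = 0.129), which passed without replicate 2 or 3 of WT at 22 °C (adjusted p = 0.0263 and 0.0264). Between 37 °C and 10 °C, with 20.5% of genes called, LHY fell by 1.53 ± 0.44 (adjusted p = 0.026), a call that was lost when any single *prr7prr9* library or either WT library at 37 °C was left out (adjusted p up to 0.156). CCA1 had an LFC of 0.92 ± 0.20 there (adjusted p = 0.007), under the LFC threshold, and was called without replicate 2 at 10 °C (1.02, adjusted p = 0.0328). At 10 °C relative to 22 °C, with 3.6% of genes called, CCA1 had an LFC of 0.25 ± 0.20 (adjusted p = 0.616) and LHY of 0.48 ± 0.44 (adjusted p = 0.686).

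The response of CCA1 to 10 °C differed between *prr7prr9* and WT. The difference of LFCs was −3.59 ± 0.28 (limma, adjusted p = 0.00229), among 0.0835% of genes called for this interaction, and its adjusted p passed 0.05 without replicate 2 of *prr7prr9* at 10 °C (0.0644), replicate 3 of *prr7prr9* at 22 °C (0.0513) or replicate 1 of WT at 10 °C (0.0572). For LHY it was −2.42 ± 0.62 (adjusted p = 0.361). The interaction with 37 °C, for which 0.00321% of genes were called, was −2.10 ± 0.28 for CCA1 (adjusted p = 0.187) and −0.86 ± 0.62 for LHY (adjusted p = 1). The 95% confidence intervals of these 3 differences that were not called were −3.81 to −1.03 (LHY, 10 °C), −2.73 to −1.47 (CCA1, 37 °C) and −2.25 to 0.53 (LHY, 37 °C). They are not adjusted for the number of genes, and only the last of them holds 0. Without replicate 2 of WT at 22 °C, the interaction of LHY with 10 °C was −3.22 and that of CCA1 with 37 °C was −2.39, and both passed (adjusted p = 0.0497 for each).

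The WT responses to temperature differed between the times of day. The LFC of CCA1 at 37 °C relative to 22 °C was larger at ZT6 than at ZT1 by 3.13 ± 0.47 (limma, adjusted p = 5.26e-05), and at 10 °C by 2.88 (adjusted p = 0.00015). For LHY the differences were 1.73 ± 0.48 at 37 °C (adjusted p = 0.0384) and 2.22 at 10 °C (adjusted p = 0.008). Of 25631 genes tested at both times, 9.44% differed in the response to 37 °C and 10.9% in that to 10 °C. Between 37 °C and 10 °C, where 14% of genes differed, the difference was 0.26 for CCA1 (adjusted p = 0.781) and −0.49 for LHY (adjusted p = 0.546). Per the labels the times of day were sequenced on separate flow cells, and their tables were normalized separately, so only these differences between libraries of 1 table were compared. The difference of LHY at 37 °C was lost when any 1 of 8 of the 17 WT libraries was left out, with an adjusted p of up to 0.236 without replicate 3 at 37 °C of ZT6. These were replicates 1 and 4 at 22 °C and 2 at 37 °C of ZT1, and both at 10 °C, both at 37 °C and replicate 3 at 22 °C of ZT6. The difference of LHY at 10 °C was lost without replicate 2 at 10 °C of ZT6 (1.86, adjusted p = 0.0912).

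Set against each other within a library, CCA1 and LHY were near balance in WT at ZT1 without heat and apart after it. CCA1 minus LHY, on the log2 scale, was 1.65 ± 0.08 at 37 °C (SD, n = 4) and −0.11 ± 0.11 at 10 °C (n = 3), against −0.40 ± 0.20 at 22 °C (n = 4). Every WT library at 37 °C lay above every other WT library of ZT1. The 37 °C groups differed from 22 °C by 2.06 and from 10 °C by 1.77, each with the smallest p that the exact permutation test of these groups can give (two-sided, p = 0.0286, adjusted p = 0.103 over 18 such comparisons). The 10 °C and 22 °C groups of WT differed by 0.29 (exact p = 0.114, adjusted p = 0.342). Per kilobase of exon, where a gene's length no longer enters, 0.33 is added to each of these levels, which makes CCA1 minus LHY 1.98, 0.22 and −0.07 at 37 °C, 10 °C and 22 °C.

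In *cca1lhy* the balance was turned to LHY at every temperature. CCA1 minus LHY was −3.63 ± 0.46 at 37 °C, −3.42 ± 0.28 at 10 °C and −3.37 ± 1.21 at 22 °C (SD, n = 4 each), which differs from WT by −5.28, −3.30 and −2.97. Each of these differences also had the smallest exact permutation p of 0.0286 (adjusted p = 0.103), with all mutant libraries below all WT libraries. The 22 °C group ran between −4.26 and −1.59, with the library that stood apart as its highest. Without it the mean was −3.97 ± 0.27 (SD, n = 3), which differs from WT by −3.57. The count offset draws values that rest on few reads together, and in mean RPM, without that offset, log2 of CCA1 over LHY was −4.80, −3.54 and −2.85 in *cca1lhy* at 37 °C, 10 °C and 22 °C.

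At ZT6 CCA1 exceeded LHY in every library of both genotypes. CCA1 minus LHY was 2.65 ± 0.10 at 37 °C, 0.19 ± 0.04 at 10 °C and 0.42 ± 0.14 at 22 °C in *prr7prr9*, and 4.47 ± 0.49, 1.96 ± 0.53 and 1.01 ± 0.73 at these temperatures in WT (SD, n = 2 each). The 37 °C libraries of each genotype were the highest of that genotype. With 2 libraries a group the exact permutation test cannot give a p below 0.333, and no difference at ZT6 could pass. The difference between 37 °C and 22 °C was 2.23 in *prr7prr9* and 3.46 in WT, larger than the spread between the replicates of each group.

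**Figure D4:**
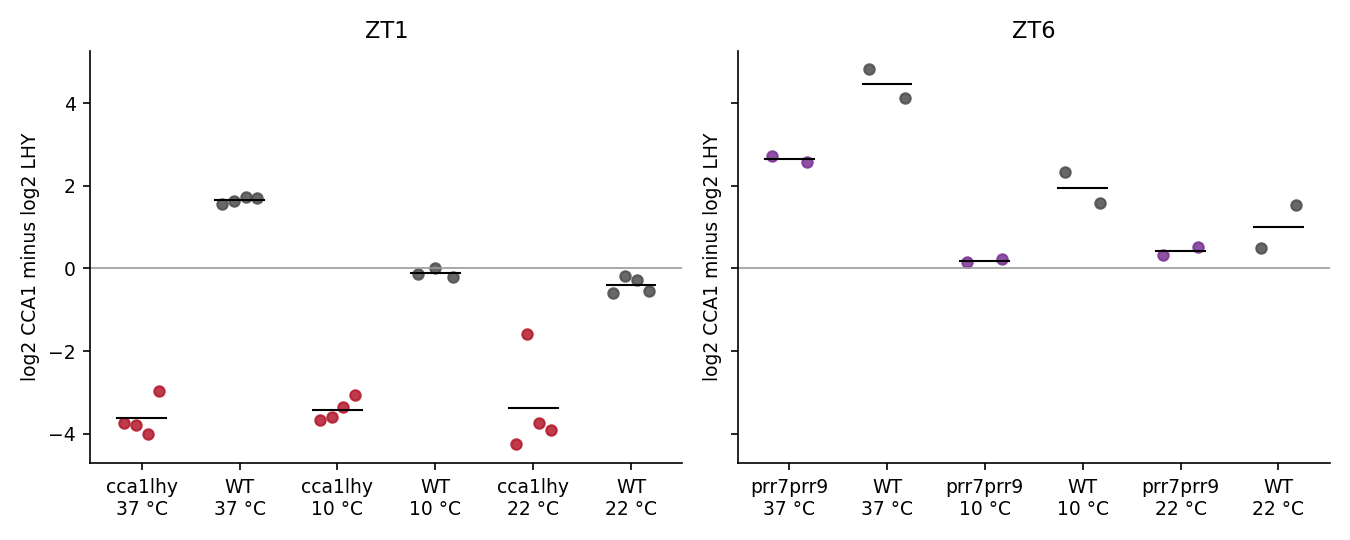
CCA1 minus LHY (difference of log2 CPM) in each library, by genotype and temperature at ZT1 and at ZT6, with group means. WT at 37 °C lies above the other temperatures of WT at both times, with means of 1.65 at ZT1 and 4.47 at ZT6, and *cca1lhy* lies below 0 throughout.

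Ordered by mean level, CCA1 at ZT1 was highest in WT at 10 °C, then in WT at 37 °C and at 22 °C, with no adjacent pair of these called (limma, adjusted p = 0.189 and 0.861). A step of 5.14 (adjusted p = 4.55e-09) separated WT at 22 °C from *cca1lhy* at 10 °C, and the remaining neighbours, *cca1lhy* at 22 °C and at 37 °C, overlapped. LHY at ZT1 ran from WT at 10 °C through WT at 22 °C to WT at 37 °C, of which only the last step, 1.92, was called. Below it came *cca1lhy* at 10 °C, 0.21 lower than WT at 37 °C with overlapping groups (adjusted p = 0.444), and *cca1lhy* at 22 °C and 37 °C. LHY in heated WT seedlings was thus not separated from LHY in cooled *cca1lhy* seedlings.

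At ZT6 the order of CCA1 was *prr7prr9* at 37 °C, 10 °C and 22 °C, then WT at 10 °C, 37 °C and 22 °C, and only the last step, 3.27, was called (limma, adjusted p = 7.27e-06). The order of LHY was *prr7prr9* at 10 °C, 22 °C and 37 °C, then WT at 10 °C, 22 °C and 37 °C, and only the step of 2.90 from WT at 10 °C to WT at 22 °C was called (adjusted p = 0.00426). Neighbours that were not called include *prr7prr9* at 22 °C and WT at 10 °C for CCA1 (0.66, adjusted p = 0.0867) and *prr7prr9* at 37 °C and WT at 10 °C for LHY (1.14, adjusted p = 0.0786). Among the WT groups of ZT6, both genes had their highest mean at 10 °C.

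The genes with the pattern most like that of CCA1 differed from those most like LHY. Over the 11 WT libraries of ZT1, Pearson's r between CCA1 and LHY was 0.580, which placed LHY at rank 1172 of 13013 well-expressed genes by likeness to CCA1, and CCA1 at rank 3853 by likeness to LHY. These correlations describe libraries that share 3 temperatures and the same normalization. Most like CCA1 were WRKY15 (AT2G23320, r = 0.960), AT1G66180 (r = 0.956), the calmodulin-binding transcription activator AT4G16150 (r = 0.956), AT2G45620 (r = 0.952) and WRKY33 (AT2G38470, r = 0.949), of which the WRKY factors are known from defence signalling. Most like LHY were LNK2 (AT3G54500, r = 0.990), a coactivator of MYB-like clock factors, then the receptor kinase gene LRR XI-23 (AT1G09970, r = 0.988), AT3G51950 (r = 0.986), DGR2 (AT5G25460, r = 0.986) and AT2G25520 (r = 0.986).

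Over the 12 libraries of ZT6, which share 2 genotypes and 3 temperatures, r between CCA1 and LHY was 0.761, at rank 155 for CCA1 and 103 for LHY of 19335 genes. Most like CCA1 was COL1 (AT5G15850, r = 0.965), a relative of the flowering gene CONSTANS, beside AT5G15845 (r = 0.965), whose reads may be those of COL1, then AT2G15020 (r = 0.960), ABCF5 (AT5G64840, r = 0.955) and AT1G64500 (r = 0.954). Most like LHY was RVE8 (AT3G09600, r = 0.967), a MYB-like relative of CCA1 and LHY that activates evening genes. It was followed by the cyclin gene CYCP2;1 (AT3G21870, r = 0.953), COL2 (AT3G02380, r = 0.941), RPB5E (AT3G54490, r = 0.936) and ATH13 (AT5G64940, r = 0.933). AT3G54490 stands next to LNK2 (AT3G54500) in the numbering of loci. Ranked by Spearman's rho, RVE8 again came first for LHY at ZT6 (0.979), but other genes led elsewhere, namely AT4G15430 for CCA1 at ZT6 (0.965), WRKY33 for CCA1 at ZT1 (0.955) and AT3G17900 for LHY at ZT1 (1).

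Of the repressors of CCA1 and LHY, several were higher in *cca1lhy* at ZT1. Of 5 repressors, 3 rose in *cca1lhy* relative to WT at 37 °C, 4 at 10 °C and 4 at 22 °C, and none fell, against 1.31%, 1.12% and 1.33% of all genes called higher. The median LFC of the list was 1.00, 1.67 and 1.79, against medians over all genes of 0, −0.0033 and 0. PRR5, an afternoon repressor, rose by 2.48, 4.55 and 4.17, PRR7, a daytime repressor, by 1.00, 2.03 and 1.79, and TOC1 by 2.04, 1.67 and 2.02. CHE, a TCP factor that binds the CCA1 promoter, rose by 1.24 at 10 °C and 1.54 at 22 °C. PRR9, the earliest of the repressors, had LFCs of 0.17, 0.13 and 0.88 and was not called.

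Some of the 5 repressors also changed with temperature in WT. Relative to 22 °C, 3 rose at 37 °C and 2 rose and 1 fell at 10 °C at ZT1, where 13.3% and 1.87% of all genes were called, and 2 rose at 37 °C and 1 rose and 1 fell at 10 °C at ZT6 (14.4% and 5.94%). CHE was called in none of these comparisons. At ZT1 PRR9 rose by 1.21, PRR7 by 1.69 and PRR5 by 1.59 in WT at 37 °C relative to 22 °C. At 10 °C PRR9 rose by 1.17 and PRR5 by 1.92, and PRR7 fell by 1.14. At ZT6 PRR9 rose by 3.66 and PRR7 by 1.40 in WT at 37 °C, and at 10 °C PRR9 rose by 3.24 and TOC1 fell by 1.31. The rise of PRR9 in WT at ZT6 thus stood beside a rise of CCA1 at both stress temperatures.

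Of 7 activators of CCA1 and light signalling factors, among them the WD-repeat proteins LWD1 and LWD2 and the TCP factors TCP20 and TCP22, none was called between *cca1lhy* and WT or between *prr7prr9* and WT at any temperature. Of all genes, 1.57% to 2.13% were called in *cca1lhy* and 0.141% to 0.286% in *prr7prr9*, so few or no calls are usual in so short a list. Their LFCs in *cca1lhy* ran from −0.51 (HY5, 10 °C) to 0.45 (FHY3, 37 °C). None of 6 genes of casein kinase 2, the enzyme that phosphorylates CCA1, was called in these comparisons either. The CKB3 subunit was called for the interaction of *cca1lhy* with 37 °C, with a difference of LFCs of −1.0 (limma, adjusted p = 0.0418). Of all genes, 0.913% were called for this interaction.

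Of the MYB-like relatives of CCA1 and LHY and their coactivators, up to 7 of 12 were called in *prr7prr9* at ZT6 and up to 2 of 12 in *cca1lhy* at ZT1, a contrast that was not itself tested. The shares of all genes called also differed, with 0.141% to 0.286% in *prr7prr9* and 1.57% to 2.13% in *cca1lhy*. In *cca1lhy*, 1 of 12 was called higher at 37 °C (LNK2, 1.03), 1 higher and 1 lower at 10 °C (RVE7, 1.02, and RVE3, −1.35), and none at 22 °C. Of all genes, 1.31% were called higher at 37 °C there, and 1.12% higher and 0.455% lower at 10 °C. In *prr7prr9* at ZT6, 3 of 12 rose at 37 °C, none at 10 °C and 7 at 22 °C, and none fell, where 0.106%, 0.0674% and 0.215% of all genes were called higher. RVE8 rose by 2.95 at 37 °C and 3.90 at 22 °C, RVE1, a relative that acts on auxin genes, by 2.40 and 3.72, and LNK3, a coactivator relative, by 2.17 and 3.48. At 22 °C LNK4 rose by 2.74, RVE2 by 2.48, LNK2 by 2.44 and LNK1 by 1.32. The 7 calls at 22 °C were 4 without replicate 3 of *prr7prr9*.

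LNK3, RVE8 and RVE1 had, like CCA1, a lower LFC at 10 °C in *prr7prr9* than in WT. The difference of LFCs was −3.07 for LNK3 (adjusted p = 0.0035), −2.76 for RVE8 (adjusted p = 0.0187) and −2.47 for RVE1 (adjusted p = 0.0206). Of all genes, 0.0835% were called for this interaction. PRR9, itself mutated in *prr7prr9*, had a difference of −2.91 (limma, adjusted p = 0.0152). The cold-regulated evening repressors COR27 and COR28 differed in the other direction, by 4.44 (adjusted p = 0.0085) and 3.29 (adjusted p = 0.0152).

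Evening genes, the classical targets of CCA1 and LHY repression, were higher in *cca1lhy* at ZT1. Of 12 such genes, 8 rose at 37 °C, 10 at 10 °C and 9 at 22 °C relative to WT, and none fell. These 12 genes include PRR5 and TOC1. They are textbook genes of the clock, but the list was drawn up with earlier results of these data known, so the counts are a description. Of all genes, 1.31%, 1.12% and 1.33% were called higher. The median LFC of the list was 1.19, 1.77 and 1.66, against 0, −0.0033 and 0 over all genes. The flowering regulator FKF1 rose by 2.36, 5.96 and 4.45, ELF4, a member of the evening complex, by 1.53, 2.76 and 2.50, and the RNA-binding protein gene GRP7 by 1.41, 2.57 and 2.57. GI rose by 1.18, 2.31 and 1.94, and LUX, the DNA-binding member of the evening complex, by 1.21, 1.54 and 1.21. The LFCs of COR27, COR28 and GRP8 at 37 °C were −0.00, 0.91 and 0.24, while at 10 °C they rose by 1.12, 1.88 and 1.14.

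For PRR5 and FKF1 the response to 37 °C differed between the genotypes, with differences of LFCs of −1.69 (limma, adjusted p = 0.0031) and −2.09 (adjusted p = 0.000257) for *cca1lhy* minus WT. These stood beside the difference of 1.77 in LHY. In *prr7prr9* at ZT6, where CCA1 and LHY were high, 5 of the 12 evening genes were called lower than in WT at 22 °C and none higher, with 0.0707% of all genes called lower. ELF4 fell by 3.23, FKF1 by 3.16, COR28 by 3.11, COR27 by 2.2 and LUX by 1.84 in *prr7prr9* at 22 °C. The 5 calls were 3 without either *prr7prr9* library. At 37 °C LUX alone of the list fell, by 1.02, and at 10 °C COR27 alone was called, with a rise of 2.24. Of all genes, 0.145% and 0.141% were called in these comparisons.

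**Figure D5:**
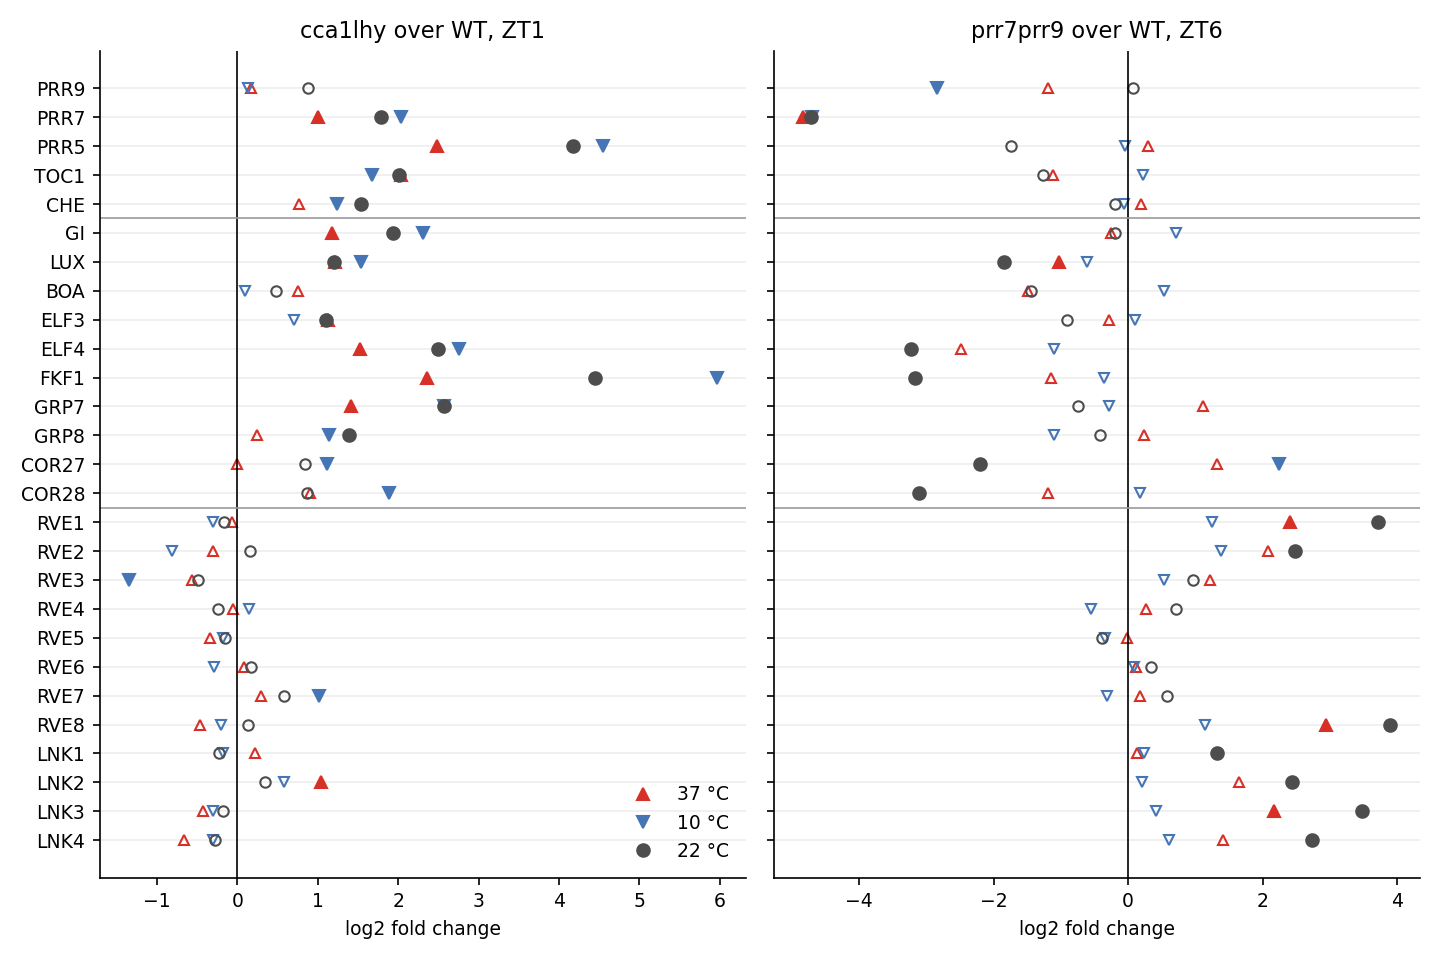
LFC of clock genes linked to CCA1 and LHY (repressors, evening genes, and MYB-like relatives with coactivators) in *cca1lhy* relative to WT (ZT1) and in *prr7prr9* relative to WT (ZT6) at 37 °C, 10 °C and 22 °C, with called values marked. CCA1 and LHY themselves are not drawn. FKF1 (up to 5.96) and PRR5 (up to 4.55) are the largest rises in *cca1lhy*.

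The evening element AAATATCT, searched on both strands in 1000 bases before the start, was found in 10 of the 12 evening genes (83.3%), in 2 of 5 repressors, in 1 of 12 MYB-like relatives and coactivators, and in 1 of 7 activators, against 15.3% of all promoters of that length. The motif was defined on genes of this kind, so the share is a description. The 7 evening genes called higher in *cca1lhy* at all 3 temperatures each hold it. The match nearest to the start of each is printed to show the site that CCA1 and LHY are known to bind, with the element in capitals and its flanks in lower case, on the strand where it reads AAATATCT.
FKF1: tccgagaAAATATCTagcctac
PRR5: gaaaagaAAATATCTagaaaaa
ELF4: attgtagAAATATCTaaagata
GRP7: caagataAAATATCTtttctcg
GI: cccctcaAAATATCTgtggaca
TOC1: ttggagaAAATATCTcatgata
LUX: agatctaAAATATCTagctaac

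In TAIR10.1 these lie at chr1:25508446-25508467 on the reverse strand for FKF1, 186 bases before its start, at chr5:8358719-8358740 (forward, 187 bases) for PRR5 and at chr2:16735179-16735200 (forward, 240 bases) for ELF4. The site of GRP7 lies at chr2:9266573-9266594 (reverse, 30 bases), that of GI at chr1:8061154-8061175 (forward, 590 bases), that of TOC1 at chr5:24674805-24674826 (reverse, 151 bases) and that of LUX at chr3:17182983-17183004 (forward, 52 bases). Of the other evening genes, COR27, GRP8 and BOA also hold the element, and ELF3 and COR28 do not.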

How the data were processed

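The deposited values are log2 CPM, which the authors made table by table for ZT1 and for ZT6. They trimmed reads with cutadapt, aligned them to TAIR10 (TopHat2 version 2.0.14, with version 2.2.5 of Bowtie2), counted exons of Araport11, added 5 to each count, scaled libraries with calcNormFactors and applied voom and quantile normalization of limma. The tables also hold the authors' own fold changes and false discovery rates, which were not used. The plan named a test for counts in case the files held them. As they hold log2 CPM, limma 3.58.1 (R 4.3.3) was used instead, with an intensity trend, on the 6 groups of a time and without a replicate block. Genes entered a test if they exceeded their table's minimum in 3 or more libraries (ZT1, 25727 genes) or 2 or more (ZT6, 31135 genes). ZT6 columns were mapped to groups, with the table's own replicate numbers. Differences of the WT responses between times used the SE of both fits.

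The members, the gene lists and the tests were chosen with earlier results of these data known. Named genes are CCA1, LHY, PRR7 and PRR9, called list members (up to 6 per list and comparison), the 5 most similar genes and called neighbours. Reads were recovered from steps between values, exact up to 155 to 471 reads per gene at ZT1 and 402 to 773 at ZT6. Sequences came from the RefSeq TAIR10.1 genome, matches from blastn 2.17.0+. On simulated data, 94% and 99% of genes changed by 1.5 and 3 (log2) were found between *cca1lhy* and WT at 22 °C, and 49% and 93% between *prr7prr9* and WT. Same-numbered libraries of ZT1 deviated together only weakly, with a mean r of 0.034 over 55 pairs, against −0.011 over 165 pairs of other numbers. Of these pairs, 16 and 34 passed 0.1. For 10 of 23 libraries the highest r was with a library of the same number. Whether the numbers mark pairs was not tested. Alternatives tried were other filters, a pseudocount of 4 CPM, no trend, a robust fit, fits on the compared groups only, centring on the reference genes PP2A and IPP2, a replicate block, other windows of neighbours, and each library left out. List counts without single libraries and a block on the ZT6 column numbers were added after the data were seen.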

Additional observations from a re-analysis of the deposited data

Results flagged for a closer look

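The 5 groups of 4 libraries were each examined for a library far from the others in 3 measures (CCA1, LHY and CCA1 minus LHY). Of these 15 examinations, which share libraries and are not independent, 3 found one, where chance gives about 1 in 20 for a single group and measure. CCA1 was at 3.93 log2 CPM in replicate 4 of *cca1lhy* at 10 °C, with a gap that was 0.923 of the range of its group. CCA1 was at 5.29 in replicate 2 of *cca1lhy* at 22 °C (0.864 of the range), and LHY at 6.74 in replicate 2 of WT at 37 °C (0.89 of the range).

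Differences between groups under the same comparison passed their tests in these cases. The response of CCA1 to 10 °C at ZT6 differed by −3.59 between *prr7prr9* and WT, and that of LHY to 37 °C at ZT1 by 1.77 between *cca1lhy* and WT. Between ZT6 and ZT1 in WT, CCA1 differed by 3.13 in the response to 37 °C and 2.88 in that to 10 °C, and LHY by 1.73 and 2.22.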

How the results depend on the processing

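The replicate block at ZT1 changed no call: with it CCA1 differed by −6.10, −6.07 and −5.56 between *cca1lhy* and WT at 37 °C, 10 °C and 22 °C. At ZT6 the columns could not be matched to the replicate numbers of the labels, and a block on the numbers in the column names was added after the data were seen. Same-numbered columns deviated together with r of −0.398 to 0.298 over 7 pairs of groups, so they share only a number. With that block the call of LHY between 37 °C and 10 °C in *prr7prr9* was lost (−1.63), and no other call of CCA1 or LHY within ZT6 changed. Of all genes 17 were then called between *prr7prr9* and WT at 10 °C, against 44 without it, 693 against 1122 for 10 °C relative to 22 °C in *prr7prr9*, 13 against 26 for the interaction with 10 °C and 0 against 1 for that with 37 °C. Where only 1 library of a group was left, it was assumed to vary like the other groups. The cause of the changes was not tested. Few reads limit CCA1 in *cca1lhy*, and 2 libraries a group limit ZT6.

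The −2.10 interaction of CCA1 with 37 °C at ZT6 passed with a stricter filter (adjusted p = 0.035) and with centring on PP2A and IPP2 (−2.22), which moved the median of all genes by up to 0.29. Centring turned LHY at 37 °C relative to 22 °C to 0.038 in *cca1lhy* and 0.10 in WT at ZT6. LHY between *prr7prr9* and WT at 10 °C passed with robust fitting, a stricter filter and only the compared groups (2.68 each), the pseudocount (2.53) and centring (2.75). At 37 °C that comparison (4.24) and LHY between 37 °C and 10 °C in *prr7prr9* (−1.53) were lost with no filter, and LHY between 37 °C and 22 °C in *prr7prr9* passed with the pseudocount (−1.01) and only the compared groups (−1.05). Of the differences of LHY between times, that at 37 °C was lost with no filter and only the compared groups (1.73 each), that at 10 °C with only the compared groups (2.22), and that between 37 °C and 10 °C turned to 0.34 with the pseudocount. The pseudocount turned CCA1 minus LHY between 37 °C and 10 °C in *cca1lhy* to 0.040. With 10 neighbours a side, the share called around CCA1 was 5% at 37 °C and 0% at 10 °C in *cca1lhy* and 0% at 37 °C and 22 °C in *prr7prr9*.

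With single libraries left out, CCA1 in *cca1lhy* relative to 22 °C ran from −0.74 to 0.35 at 37 °C and 0.085 to 1.17 at 10 °C, and its interactions from −0.87 to 0.22 and −0.88 to 0.20, each turned or called only without replicate 2 at 22 °C. LHY in *cca1lhy* at 37 °C ran from −0.30 to 0.011, with the highest also without that library. CCA1 minus LHY in *cca1lhy* ran from −0.55 to 0.34 at 37 °C and −0.34 to 0.55 at 10 °C relative to 22 °C, and the difference at 10 °C also turned to 0.038 without replicate 1 at 10 °C and to 0.014 without replicate 2 at 10 °C. At ZT6 CCA1 between 37 °C and 10 °C in *prr7prr9* ran from 0.82 to 1.02, and its interactions from −2.39 to −1.81 at 37 °C and −3.88 to −3.30 at 10 °C. LHY in *prr7prr9* ran from −1.13 to −0.97 at 37 °C relative to 22 °C and −1.61 to −1.45 relative to 10 °C. LHY in WT at 37 °C ran from −0.99 to 0.62, turned without replicate 2 at 22 °C (0.62) or at 37 °C (0.027), and at 10 °C from 2.1 to 3.71. LHY between *prr7prr9* and WT ran from 4.02 to 4.45 at 37 °C and 2.31 to 3.04 at 10 °C, and its interaction with 10 °C from −3.22 to −1.61. The LHY differences between times ran from 0.92 to 2.53 (37 °C) and 1.42 to 3.03 (10 °C). Evening genes called lower in *prr7prr9* at 22 °C numbered 3 to 7, and MYB-like relatives called higher 4 to 7.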

Other observations

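Of 71 transcription factors that the study lists as bound by CCA1 or LHY, a list chosen on the heat response of these samples, *cca1lhy* had 6 called higher and 1 called lower relative to WT at 37 °C, 8 and 3 at 10 °C, and 8 and 1 at 22 °C. LHY, itself mutated in *cca1lhy*, is on this list. It is the 1 factor called lower at 22 °C (−2.59) and 1 of the 3 at 10 °C (−2.81). Of all genes 1.31%, 1.12% and 1.33% were called higher and 0.824%, 0.455% and 0.385% lower. Their median LFC was 0.25, 0.18 and 0.27, against 0, −0.0033 and 0 over all genes. LHY and factors that belong to the gene lists described above were left out when single factors were ranked. Of the rest, the largest called changes at 22 °C were rises of BBX8 (1.76), a B-box protein, and of the heat shock factor HSFA8 (1.72). LZF1 (1.66), a B-box protein of light signalling, HMGB3 (1.63), a chromatin protein, and MYBL2 (1.61), a repressor of anthocyanin synthesis, followed.

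The genes beside CCA1 and LHY on their chromosomes were counted because a mutation is inherited with its neighbours. Among 50 tested genes around CCA1, 1 was called in *cca1lhy* at 37 °C (GulLO2, a rise of 1.09), 1 at 10 °C (AT2G46940, a fall of 1.40) and 0 at 22 °C (2%, 2% and 0%, against 2.13%, 1.57% and 1.72% of all genes). Among 33 around LHY, which stands near the end of chromosome 1, none was called in either mutant. PRR9 is itself among the genes around CCA1. In *prr7prr9*, AT2G46670, annotated as a CCT motif family protein and also near CCA1, fell by 5.71, 5.79 and 2.65 at 37 °C, 10 °C and 22 °C, and PRR9 fell by 2.84 at 10 °C, while no other of the 50 genes around CCA1 was called (2%, 4% and 2%, against 0.145%, 0.141% and 0.286% of all genes).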
